A study of Mus musculus with 42 samples.

Results

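Ribosome footprints were compared between leukaemia cells from mice given 5+3 chemotherapy and from mice given vehicle, all fed the amino acid (AA) diet. The comparison holds 9 of the series' 42 libraries, chosen by their labels: 4 footprint libraries from 5+3 mice and 5 from vehicle mice. 5+3 was cytarabine at 100 mg/kg daily for 5 days with doxorubicin at 3 mg/kg daily for the first 3 of those days, and vehicle was PBS. The cells were murine acute myeloid leukaemia cells driven by the MLL-AF9 fusion, sorted as viable GFP+ cells from the bone marrow of male recipients that were 8 to 10 weeks old, each injected intravenously with leukaemia cells and without preconditioning. All 9 mice carried the same kind of leukaemia and ate the same diet, so drug treatment is the labelled difference. The names of all vehicle mice on this diet carry a suffix that the names of 5+3 mice lack, and what that suffix marks and the treatment cannot be told apart. The same mice gave mRNA libraries, made from a small volume of the same lysate, and 12 further footprint libraries came from mice on a diet without branched-chain amino acids (BCAA), 7 given 5+3 and 5 given vehicle.

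A ribosome footprint is the stretch of mRNA that a ribosome shields from nuclease, so the number of footprints on a gene follows both how much of its mRNA is present and how densely ribosomes occupy it. Cytarabine is a nucleoside analogue that stalls DNA replication, and doxorubicin poisons topoisomerase II. Both damage DNA and activate p53. MLL-AF9 holds myeloid progenitors in an immature, self-renewing state through Hoxa9 and Meis1, and such leukaemias contain cells that resemble granulocyte progenitors and cells that resemble monocytes.

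Footprint libraries held 3936208 to 6617330 counts in 5+3 mice and 2697092 to 6175596 in vehicle mice, and protein-coding genes received 51.7 to 55.5% of them in 5+3 mice and 49.0 to 54.1% in vehicle mice. Replication-dependent histone genes took 19.7 to 25.2% of the coding counts in 5+3 mice and 12.7 to 22.4% in vehicle mice. Histone genes and pairs such as Eno1 and Eno1b or Lyz1 and Lyz2 are near-identical in sequence, so their values cannot be assigned to one copy with certainty. The first principal component, with 29.2% of the variance, placed the 5+3 mice at 8.14 to 22.2 and the vehicle mice at -28.4 to 1.97. The second, with 23.6%, set vehicle replicates 1 and 2, the 2 shallowest libraries, apart from the other 7. The leukaemia identity of the samples was checked on Hoxa9, which averaged 59.6 ± 8.03 CPM (read counts scaled to library size) in 5+3 mice and 59.9 ± 10.5 CPM in vehicle mice (SD, n = 4 and 5), and on Meis1, at 81.0 ± 8.54 CPM in 5+3 mice and 81.1 ± 11.1 CPM in vehicle mice. Because each library pools sorted cells, fewer cells of a type and less RNA per cell cannot be told apart in any value given here.

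Of 9441 genes tested, 837 (8.87%) passed an adjusted p of 0.05 in edgeR's quasi-likelihood test, 398 (4.22%) higher and 439 (4.65%) lower in 5+3 mice. The median gene changed by -0.01 on the log2 scale. Changes were mostly modest: the median fold was 1.39 among the genes that rose and 1.56 among those that fell, and 23 rises and 98 falls reached 2-fold. The rises covered chaperones, cholesterol enzymes, glycolysis and cell division genes. The falls covered genes of monocytes, the lysosome, adhesion and the actin cytoskeleton. The number of genes called depended on the mice: it was 490 without 5+3 replicate 1 and 446 without 5+3 replicate 2. The labels name a separate mouse for each library, so the p-values refer to the spread between mice.

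**Figure D1:**
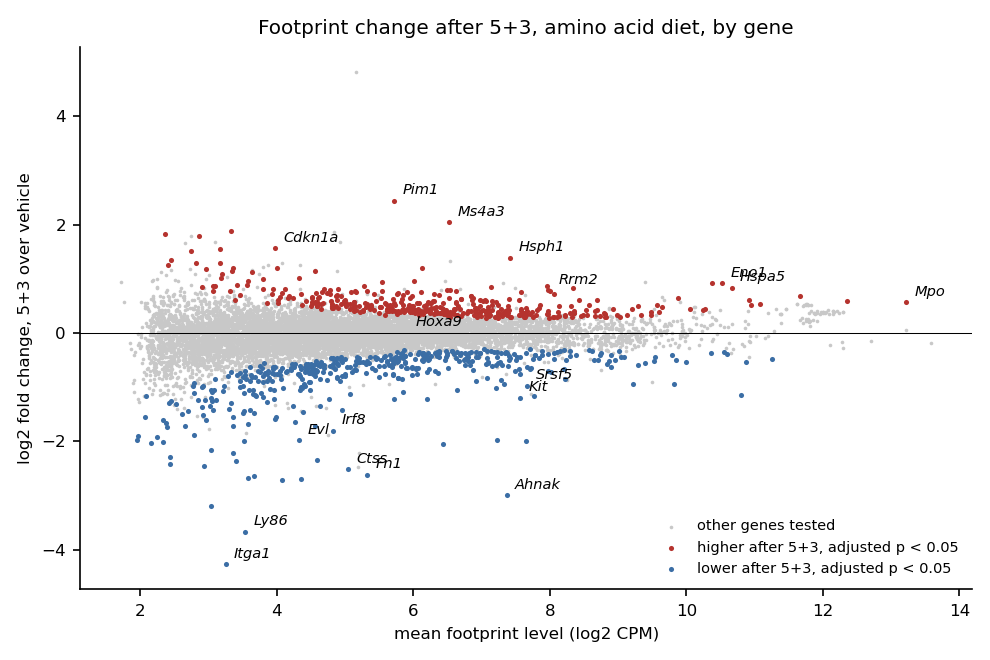
Footprint log2 fold change (5+3 over vehicle, AA diet) against mean footprint level (log2 CPM) for the 9441 genes tested. Red points are the 398 genes that rose, blue points the 439 that fell and grey points genes that did not pass The called falls reach further from 0 (Itga1, -4.27) than the called rises (Pim1, 2.44), and the grey point at the top is Nap1l5.

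Pim1 showed the largest rise of the genes that passed. It encodes a serine/threonine kinase induced by cytokine signalling through STAT proteins that supports survival of blood cells, and lies at chromosome 17, 29490785 to 29496111 (GRCm38.p6). Its footprints stood at 94.9, 150, 88.2 and 42.4 CPM in 5+3 mice, against 16.1, 36.7, 7.68, 22.2 and 8.65 CPM in vehicle mice. Every 5+3 mouse was above every vehicle mouse, although 5+3 replicate 4 lay close to vehicle replicate 2. The log2 change was 2.44 ± 0.53 (SE; adjusted p = 0.0325). The call was lost in 7 of the 9 fits that left out 1 mouse, all except those without vehicle replicate 2 or 5+3 replicate 4, with adjusted p of 0.0589 to 0.0885. Of the 8 tested genes in a list of STAT5 targets and feedback genes, Pim1 was the only one that passed. Over all genes tested, 8.87% passed.

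Ms4a3, a membrane protein of granulocyte-monocyte progenitors, rose next most. It was at 167, 207, 140 and 111 CPM in 5+3 mice and at 22.7, 56.1, 28.2, 52.0 and 28.7 CPM in vehicle mice, with no overlap. The change was 2.05 ± 0.30 (adjusted p = 0.00689), and it passed in every fit without 1 mouse. Clec5a, a myeloid lectin receptor that signals through DAP12, averaged 15.2 ± 2.62 CPM in 5+3 mice and 4.14 ± 2.43 CPM in vehicle mice (log2 change 1.88, adjusted p = 0.000486). Clec4e, the lectin receptor Mincle, averaged 21.9 ± 4.29 CPM in 5+3 mice and 9.40 ± 1.46 CPM in vehicle mice (1.21, adjusted p = 0.000402). Both pattern receptors were higher in all 5+3 mice than in any vehicle mouse. Other rises among the 15 largest were in genes of low footprint level: Pdgfrl (1.82), Lrg1 (1.79), Saa3 (1.55), Wfdc21 (1.5), Car2 (1.34), Spata5l1 (1.29), Iqcg (1.29), Emid1 (1.25) and Polq (1.20). Of these 9, Polq, the DNA polymerase of microhomology-mediated end joining, passed in every fit without 1 mouse, whereas Lrg1, Car2 and Emid1 lost the call in 6, 4 and 7 of the 9 fits.

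The p53 response was read first on Cdkn1a, which encodes the cell-cycle inhibitor p21 and is the classical p53 target. Cdkn1a (chromosome 17, 29090979 to 29100722) was at 22.8, 32.8, 13.0 and 22.9 CPM in 5+3 mice and at 6.6, 3.46, 8.78, 6.91 and 11.1 CPM in vehicle mice. The lowest 5+3 mouse, replicate 3, was still above the highest vehicle mouse. The change was 1.56 ± 0.26 (adjusted p = 0.00161). Across a list of 36 p53 targets, 29 were tested, 2 rose and 1 fell, beside 4.22% and 4.65% of all genes tested. The median change of the list was 0.03. The second rise was Gtse1, a regulator of p53 and mitosis (0.77, adjusted p = 0.00728), and the fall was Dcxr, a carbonyl reductase (-0.66, adjusted p = 0.0316). Dcxr lost the call in 6 of the 9 fits without 1 mouse, with adjusted p up to 0.121. Mdm2, the ubiquitin ligase of p53, averaged 24.1 ± 2.10 CPM in 5+3 mice and 25.7 ± 2.59 CPM in vehicle mice (-0.08, adjusted p = 0.845). Ccng1, another p53 target, did not pass (0.47, adjusted p = 0.0502). In mRNA, 1 of 33 tested p53 targets rose and none fell, beside 0.0869% and 0.316% of all genes tested. Phlda3 mRNA rose (3.34, adjusted p = 0.029 in edgeR), and its footprints were not tested. The mRNA of Cdkn1a (1.56, adjusted p = 0.0642) and Ccng1 (1.07, adjusted p = 0.0536) did not pass, though neither overlapped between groups.

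Among 28 DNA damage signalling genes, all tested, 4 rose and 1 fell (median 0.08), beside 4.22% and 4.65% of all genes tested. Brca1, a tumour suppressor of DNA repair, averaged 66.3 ± 8.54 CPM in 5+3 mice and 48.7 ± 3.7 CPM in vehicle mice (0.44, adjusted p = 0.0155). Its partner Bard1 (0.41) and the histone variant gene H2afx (0.54) also rose, and Prkdc, the catalytic subunit of DNA-dependent protein kinase, fell (-0.37). Brca1 lost the call without 5+3 replicate 3 (adjusted p = 0.0696), Prkdc and H2afx in 5 fits each (up to 0.144 and 0.107), and Bard1 in 6 (up to 0.132). The number of rises was 2 without vehicle replicate 4, vehicle replicate 5, 5+3 replicate 1 or 5+3 replicate 3.

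Part of the cell division genes rose. In a list of 55 genes of G2 and mitosis, 23 rose and none fell (median 0.30), and in 42 genes of S phase and DNA replication, 12 rose and none fell (median 0.21). In mRNA, none of either list passed in edgeR (medians 0.16 and 0.11), where only 0.0869% of all genes tested were called higher. Of the mRNA changes, 42 of 55 and 28 of 42 were positive. Ribonucleotide reductase, which makes deoxynucleotides and is the target of several antileukaemic nucleosides, was among the genes whose footprints rose. Rrm2, its small subunit, was at 318, 379, 317 and 317 CPM in 5+3 mice and at 208, 208, 181, 184 and 189 CPM in vehicle mice, with a wide gap between the groups (0.78 ± 0.09, adjusted p = 1.98e-05). Its large subunit Rrm1 averaged 945 ± 24.1 CPM in 5+3 mice and 680 ± 53.1 CPM in vehicle mice (0.47, adjusted p = 0.00314). Thymidylate synthase, Tyms, rose by 0.77 (adjusted p = 0.000156), and Mcm10 and Rfc4, which act at the replication fork, rose by 0.55 and 0.44.

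Of the mitotic genes, the checkpoint kinase Bub1 averaged 128 ± 3.88 CPM in 5+3 mice and 83.2 ± 4.23 CPM in vehicle mice (0.63, adjusted p = 0.000156). Cyclin A2, Ccna2, averaged 163 ± 5.21 CPM in 5+3 mice and 108 ± 7.34 CPM in vehicle mice (0.58, adjusted p = 0.000315). Hmmr (0.62), Aurkb (0.55), the transcription factor Mybl2 (0.75) and Top2a, the topoisomerase that doxorubicin poisons (0.44), rose too, with no overlap between groups. Mki67, the common proliferation marker, did not pass (0.30, adjusted p = 0.122). Ndc1, a nuclear pore membrane protein, had one of the 6 smallest adjusted p of all rises (0.71, adjusted p = 5.85e-05). The count of mitotic genes that rose was 14 without 5+3 replicate 1, against 23 with all mice.

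**Figure D2:**
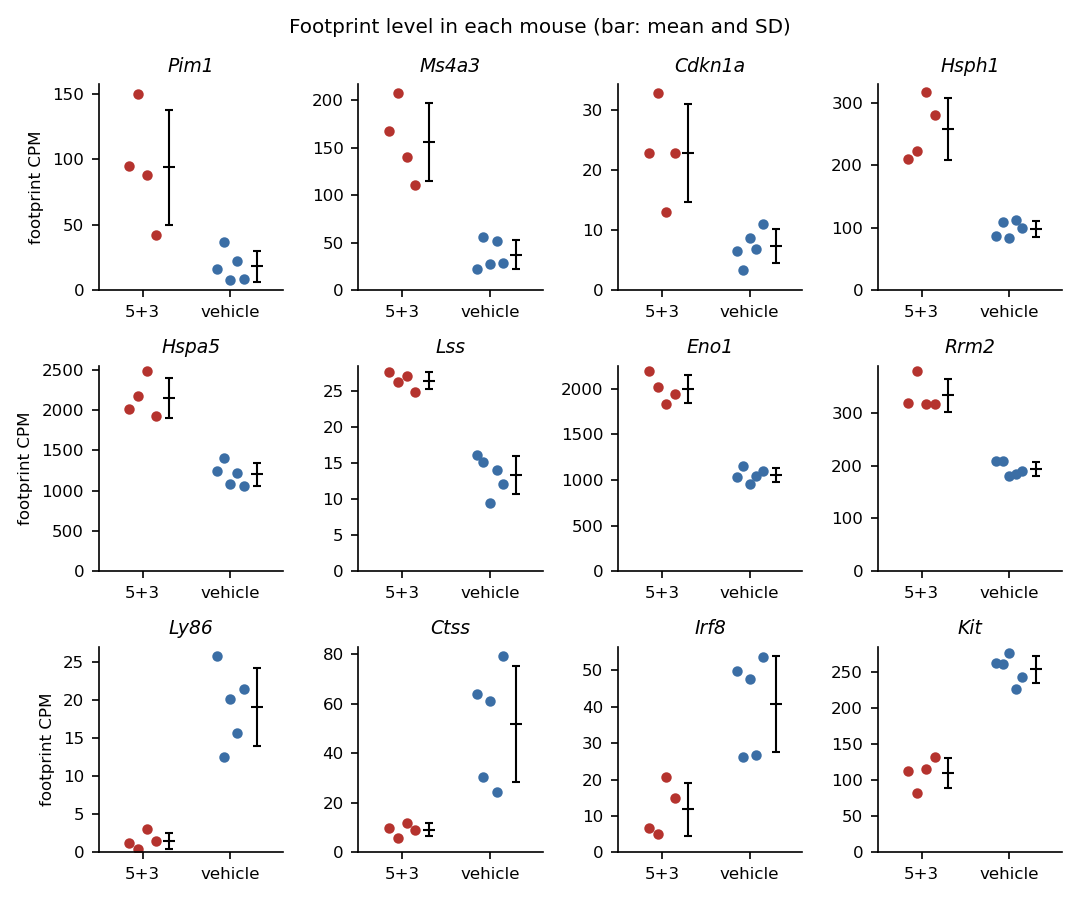
Footprint level (CPM, linear axes from 0) of 12 genes in each 5+3 mouse (red, n = 4) and each vehicle mouse (blue, n = 5), with mean and SD beside the points. The groups do not overlap in any of the 12 panels, and the 5+3 mice lie above the vehicle mice in the first 8 panels and below them in Ly86, Ctss, Irf8 and Kit.

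Chaperones of 2 compartments rose. Hsph1, the cytosolic Hsp110 that recharges Hsp70, had the smallest adjusted p of all rises. It was at 211, 224, 318 and 281 CPM in 5+3 mice and at 87.2, 109, 84.5, 112 and 99.3 CPM in vehicle mice, so the lowest 5+3 mouse was far above the highest vehicle mouse (1.39 ± 0.12, adjusted p = 2.22e-06). Of 24 tested cytosolic heat shock proteins and co-chaperones, 8 rose and none fell (median 0.27). Hsp90aa1, the inducible Hsp90, averaged 4093 ± 456 CPM in 5+3 mice and 2555 ± 108 CPM in vehicle mice (0.68, adjusted p = 0.00122). Its co-chaperones Fkbp4 (0.42), Stip1 (0.40) and Chordc1 (0.64) and the Hsp70 partner Dnaja1 (0.60) rose as well. In the TRiC chaperonin and prefoldin, 5 of 14 rose, led by Cct6a (0.36, adjusted p = 0.0105) and Cct4 (0.34, adjusted p = 0.0172). That count was 3 without vehicle replicate 1 or 5, 2 without 5+3 replicate 1, 2 or 4, and 1 without 5+3 replicate 3.

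In the endoplasmic reticulum (ER), 12 of 29 tested chaperones and unfolded protein response genes rose and 1 fell (median 0.29). The unfolded protein response senses misfolded proteins in the ER and induces its chaperones through Atf6, Xbp1 and Atf4. Hspa5, the ER Hsp70 known as BiP, was at 2011, 2175, 2479 and 1928 CPM in 5+3 mice and at 1242, 1404, 1084, 1222 and 1057 CPM in vehicle mice, without overlap (0.84 ± 0.12, adjusted p = 0.000156). Sdf2l1 (0.84), Creld2 (0.86), Hyou1 (0.61) and Dnajc3 (0.50), which fold proteins or assist BiP in the ER, also rose. The gene that fell was Ern1, which encodes the sensor IRE1 (-0.74, adjusted p = 0.00167). In ER translocation and transport, 7 of 32 rose and none fell (median 0.13). Sec24d, a cargo adaptor of COPII vesicles, averaged 100 ± 19.5 CPM in 5+3 mice and 44.6 ± 8.54 CPM in vehicle mice (1.19, adjusted p = 8.25e-05), and Kdelr2 and Sec23b rose by 0.54 and 0.43. The transport count was 3 without 5+3 replicate 2. P4ha1, a collagen prolyl hydroxylase of the ER lumen, rose by 0.96 (adjusted p = 2.6e-05).

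Promoter sequences of chaperone and cholesterol genes that rose and hold the motif named for their pathway are shown to place these motifs. The ER stress element was searched as CCAAT, 9 bases of any kind, then CCACG, on both strands from 250 bases before to 50 after the gene start (RefSeq, GRCm38.p6). It was present for 37 of 27025 genes in the table (0.137%), and for 8 of the 22 ER list members found there, 6 of which rose. The heat shock element was searched as 3 alternating units of GAA and TTC, each 2 bases apart. It was present for 179 genes (0.662%) and for 3 of 20 cytosolic heat shock members, of which Hsph1 and Chordc1 rose. The sterol regulatory element core TCACCCCAC was present for 166 genes (0.614%) and for 1 of 17 cholesterol members, Hmgcs1, and the form with any base at the fifth position, which includes the core, for 388 genes (1.44%) and the same member. Capitals mark the match, and a match describes the letters only.
Hspa5, chr2:34771840-34772139, plus strand: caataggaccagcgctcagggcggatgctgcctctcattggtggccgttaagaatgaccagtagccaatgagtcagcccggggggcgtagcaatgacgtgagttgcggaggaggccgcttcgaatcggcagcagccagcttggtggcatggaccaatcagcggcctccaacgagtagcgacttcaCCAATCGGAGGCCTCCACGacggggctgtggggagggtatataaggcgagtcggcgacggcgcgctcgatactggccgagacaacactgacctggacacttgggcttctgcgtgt
Creld2, chr15:88819396-88819695, plus strand: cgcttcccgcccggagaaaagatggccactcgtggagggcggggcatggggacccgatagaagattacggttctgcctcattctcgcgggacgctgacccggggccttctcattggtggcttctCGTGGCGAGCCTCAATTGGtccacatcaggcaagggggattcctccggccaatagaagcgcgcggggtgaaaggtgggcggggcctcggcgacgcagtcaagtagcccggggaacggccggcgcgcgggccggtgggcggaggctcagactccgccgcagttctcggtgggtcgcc
Hsph1, chr5:149636287-149636586, minus strand: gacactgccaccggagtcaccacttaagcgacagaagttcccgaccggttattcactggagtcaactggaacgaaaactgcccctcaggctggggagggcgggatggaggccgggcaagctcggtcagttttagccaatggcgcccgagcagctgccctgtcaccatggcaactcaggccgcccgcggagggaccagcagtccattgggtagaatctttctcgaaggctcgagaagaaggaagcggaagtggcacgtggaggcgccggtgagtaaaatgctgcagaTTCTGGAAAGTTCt
Chordc1, chr9:18292017-18292316, plus strand: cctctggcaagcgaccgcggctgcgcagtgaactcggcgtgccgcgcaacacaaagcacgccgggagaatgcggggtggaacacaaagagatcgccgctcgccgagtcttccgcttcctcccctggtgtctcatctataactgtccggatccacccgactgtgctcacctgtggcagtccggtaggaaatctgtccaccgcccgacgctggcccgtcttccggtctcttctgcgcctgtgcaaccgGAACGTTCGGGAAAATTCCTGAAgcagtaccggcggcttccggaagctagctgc
Hmgcs1, chr13:119690101-119690400, plus strand: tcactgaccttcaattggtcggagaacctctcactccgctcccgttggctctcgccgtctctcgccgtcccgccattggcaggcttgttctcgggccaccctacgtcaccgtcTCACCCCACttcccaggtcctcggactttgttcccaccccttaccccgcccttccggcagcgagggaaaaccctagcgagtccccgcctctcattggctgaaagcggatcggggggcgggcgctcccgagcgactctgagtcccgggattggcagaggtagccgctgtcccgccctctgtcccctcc

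Many cholesterol synthesis genes rose. This pathway builds sterols from acetyl-CoA through mevalonate, and its enzymes are induced by SREBP2 when sterols run low. Of 24 tested genes, 13 rose and none fell, and 23 had a positive change (median 0.56). Lss, lanosterol synthase, was at 27.6, 26.2, 27.1 and 24.9 CPM in 5+3 mice and at 16.1, 15.2, 9.51, 14.1 and 12.1 CPM in vehicle mice, with all 5+3 mice above all vehicle mice (1.01 ± 0.16, adjusted p = 0.000547). Idi1, isopentenyl diphosphate isomerase, averaged 87.6 ± 9.61 CPM in 5+3 mice and 51.9 ± 1.57 CPM in vehicle mice (0.75, adjusted p = 8.25e-05). Mvd (1.12), Fdps (0.79) and Cyp51 (0.78), which act between mevalonate and cholesterol, rose as well. Hmgcs1, the enzyme before HMG-CoA reductase, rose by 0.41 (adjusted p = 0.0245) but lost the call in 3 of the 9 fits without 1 mouse, with adjusted p up to 0.088. In fatty acid synthesis, 1 of 11 tested genes rose, the desaturase Scd2 (0.75, adjusted p = 0.0265), which lost the call in 7 of 9 such fits (up to 0.0766). Over all genes tested, 4.22% rose.

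In glycolysis, 8 of 22 genes rose and 1 fell (median 0.33). Eno1, enolase, stood at 2192, 2016, 1836 and 1941 CPM in 5+3 mice and at 1029, 1153, 956, 1040 and 1094 CPM in vehicle mice, with no overlap (0.92 ± 0.10, adjusted p = 1.83e-05). Its near-identical copy Eno1b gave almost the same values in footprints (1801 ± 142 CPM in 5+3 mice and 955 ± 60.9 CPM in vehicle mice). Ldha, the lactate dehydrogenase subunit that favours lactate, averaged 1173 ± 80.1 CPM in 5+3 mice and 753 ± 59.5 CPM in vehicle mice (0.64, adjusted p = 0.000465). Pfkl (0.69), Tpi1 (0.51) and Pgk1 (0.49) rose. Ldhb, the other lactate dehydrogenase subunit, named here because it was the single fall, averaged 7.14 ± 1.89 CPM in 5+3 mice and 15.8 ± 6.42 CPM in vehicle mice (-1.17, adjusted p = 0.0123). It missed the threshold without 5+3 replicate 2 (adjusted p = 0.0508).

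Of 22 cytosolic aminoacyl-tRNA synthetases, which load amino acids onto tRNAs, 9 rose and none fell (median 0.25). Cars, the cysteine enzyme, averaged 78.3 ± 5.96 CPM in 5+3 mice and 49.1 ± 3.89 CPM in vehicle mice (0.68, adjusted p = 0.000283), and Aars, Tars, Yars and Iars rose by 0.49, 0.46, 0.49 and 0.40. The count was 3 without 5+3 replicate 1, and Yars and Iars missed the threshold there (adjusted p = 0.0582 and 0.0577). Over all genes tested, 4.22% rose and 4.65% fell. Among 21 tested targets of Atf4, the transcription factor of amino acid stress, 1 rose and 1 fell (median 0.22) with all mice. These were the proline synthesis genes Aldh18a1 (0.47, adjusted p = 0.00798) and Pycr1 (-0.98, adjusted p = 0.0063). Asns did not pass (0.31, adjusted p = 0.0531), nor did Psat1 (0.27, adjusted p = 0.0541), Slc7a5 (0.33, adjusted p = 0.116) or Atf4 itself (0.19, adjusted p = 0.824). The count of rises was 5 without vehicle replicate 2, 4 without 5+3 replicate 4, 2 without vehicle replicate 1 or 3, and 7 without both shallow vehicle libraries. In that last fit Asns (adjusted p = 0.0264), Psat1 (adjusted p = 0.0261) and Slc7a5 (adjusted p = 0.0185) passed.

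In BCAA catabolism, 1 of 18 tested genes rose and 1 fell (median -0.06). Bckdha, the E1 alpha subunit of the branched-chain ketoacid dehydrogenase, was at 65.3, 56.5, 46.1 and 48.2 CPM in 5+3 mice and at 112, 94.8, 77.5, 79.0 and 85.4 CPM in vehicle mice. All 5+3 mice were below all vehicle mice (-0.71 ± 0.12, adjusted p = 0.00129). Dld, the E3 subunit shared with other dehydrogenases, rose by 0.30 (adjusted p = 0.0413), a call lost in 8 of 9 fits without 1 mouse (up to 0.134). Bcat2, the mitochondrial transaminase, did not pass (0.32, adjusted p = 0.0581). In the translation machinery, 1 of 79 ribosomal protein genes fell (Rpl27a, -0.45, adjusted p = 0.014). Of 42 ribosome biogenesis genes 2 rose (Noc4l and Bop1), and of 43 translation factors 2 rose (Gspt1 and Eef1g). Over all genes tested, 4.22% rose and 4.65% fell. Rpl27a missed the threshold without 5+3 replicate 1 (adjusted p = 0.0764), and Bop1, Gspt1 and Eef1g in 5, 6 and 4 of the 9 fits. Without both shallow vehicle libraries 9 ribosomal protein genes fell and 2 rose, and 4 translation factors fell and none rose. The translation factor rises numbered 4 without vehicle replicate 3, 0 without vehicle replicate 1 or 5+3 replicate 3, and 1 without any other single mouse.

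**Figure D3:**
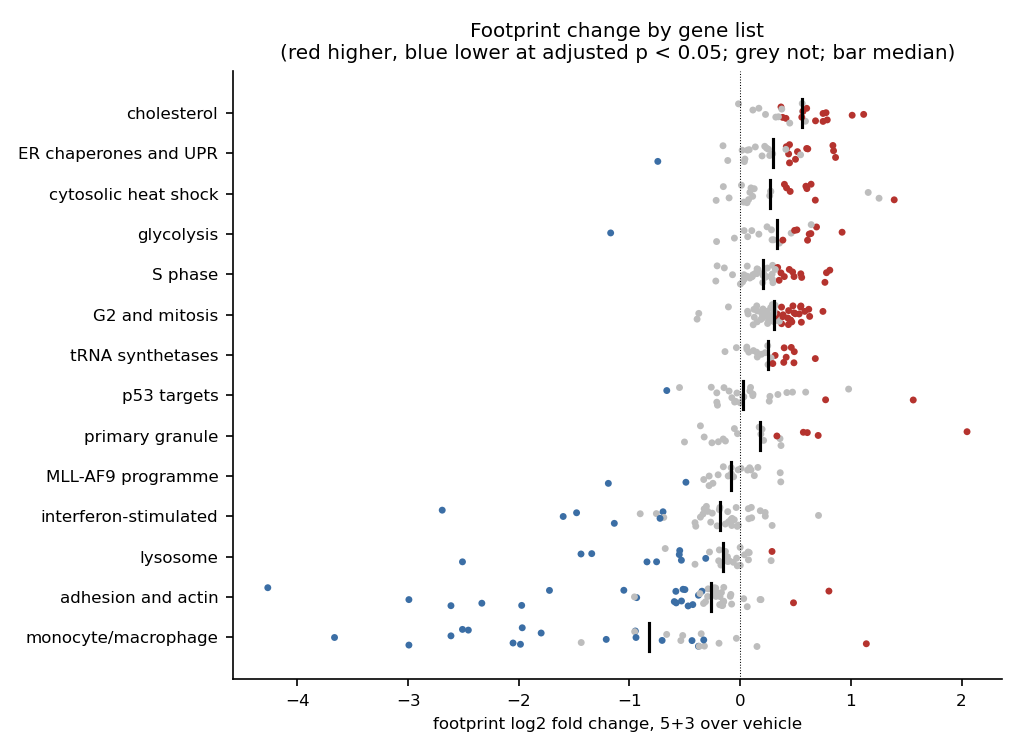
Footprint log2 fold change (5+3 over vehicle) of each tested member of 14 gene lists, one row per list, with the list median as a black bar. Red and blue points passed an adjusted p of 0.05; cholesterol genes centre on 0.56 and monocyte and macrophage genes on -0.82.

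Many monocyte and macrophage genes fell. Of 28 tested, 16 fell and 1 rose (median -0.82). Ly86, the MD-1 partner of the receptor Cd180 (chromosome 13, 37345345 to 37419036), was at 1.20, 0.415, 3.01 and 1.43 CPM in 5+3 mice and at 25.7, 12.5, 20.1, 15.6 and 21.4 CPM in vehicle mice, with a wide gap (-3.67 ± 0.33, adjusted p = 2.22e-06). Cd180 itself fell by 2.36 on the log2 scale. Mpeg1, the pore-forming perforin-2 of phagocytes, averaged 57.0 ± 4.59 CPM in 5+3 mice and 225 ± 69.6 CPM in vehicle mice (-1.97, adjusted p = 0.0024). Adgre1, which encodes F4/80, averaged 105 ± 15.0 CPM in 5+3 mice and 203 ± 26.1 CPM in vehicle mice (-0.94, adjusted p = 2.6e-05). Lyz2, lysozyme, and Ms4a6c fell by 1.98 and 0.71 on the log2 scale. The gene that rose was Tlr4, the endotoxin receptor, at 32.4 ± 2.45 CPM in 5+3 mice and 15.2 ± 5.42 CPM in vehicle mice (1.14, adjusted p = 0.00061).

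Irf8, the transcription factor that drives monocyte fate, was at 6.81, 4.99, 20.6 and 14.9 CPM in 5+3 mice and at 49.9, 26.3, 47.5, 26.7 and 53.6 CPM in vehicle mice. The groups did not overlap, and the 5+3 mice spread over a wider relative range than the vehicle mice (-1.80 ± 0.42, adjusted p = 0.0379). The vehicle mice varied in this programme: replicates 2 and 4 were the lowest for Irf8, Ctss, Fn1, Ahnak, Lyz2 and Cd180. The call of Irf8 was lost in 6 of 9 fits without 1 mouse (adjusted p up to 0.102), as were those of Fn1 (up to 0.102), Lyz2 (up to 0.093) and Cd180 (up to 0.0909), and that of Ahnak in 7 (up to 0.107). The count of monocyte genes that fell was 7 without vehicle replicate 1 or 3, 6 without 5+3 replicate 1 or 2, 8 without 5+3 replicate 3 and 7 without 5+3 replicate 4. Of 18 tested myeloid lineage transcription factors, 4 fell and none rose: Zeb2 (-0.49), Gata2 (-1.29), Stat5b (-0.38) and Irf8. That count was 2 without vehicle replicate 1, vehicle replicate 5 or 5+3 replicate 2.

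Footprints summed over markers of other cell types were set beside these falls. Summed over 13 markers of resident macrophages, footprints were 370 to 511 CPM in 5+3 mice and 518 to 628 CPM in vehicle mice. Over 15 markers of eosinophils, basophils and mast cells they were 314 to 370 CPM in 5+3 mice and 438 to 554 CPM in vehicle mice, and 4 of the 7 tested fell: Kit, Siglecf, Prg3 and Gata2. Over 10 endothelial markers they were 10.0 to 14.0 CPM in 5+3 mice and 15.3 to 33.0 CPM in vehicle mice, with Pecam1 tested and lower, and over 14 T and NK cell markers 14.4 to 16.6 CPM in 5+3 mice and 10.5 to 13.9 CPM in vehicle mice. Single genes carried much of some sums. Kit, also in the MLL-AF9 programme list, averaged 110 CPM in 5+3 mice and 253 CPM in vehicle mice. Adgre1, a resident macrophage marker, averaged 105 CPM in 5+3 mice and 203 CPM in vehicle mice. The groups did not overlap for these 4 lists. They overlapped for erythroid genes (400 to 533 CPM in 5+3 mice and 201 to 428 CPM in vehicle mice) and for B cell, dendritic cell, megakaryocyte and stromal markers. Of those tested, 1 of 6 resident macrophage markers fell (Adgre1) while 4 of the 6 had a positive change (median 0.23), 1 of 6 erythroid markers rose (Car2) and 1 of 4 stromal markers fell (Pdgfrb). No marker of the 9 lists was at 0 in all 9 libraries, and the part of such cells in the results was not tested.

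Some lysosomal and adhesion genes fell, and a few of them are also in the monocyte list. Of 30 lysosomal genes, 9 fell and 1 rose (median -0.15). Grn, progranulin, averaged 206 ± 13.3 CPM in 5+3 mice and 370 ± 45.4 CPM in vehicle mice (-0.84, adjusted p = 2.6e-05). Tfeb, the transcription factor of lysosome biogenesis, was at 4.81, 5.40, 6.02 and 6.02 CPM in 5+3 mice and at 15.4, 18.0, 13.5, 13.8 and 16.3 CPM in vehicle mice, with no overlap (-1.44 ± 0.20, adjusted p = 0.000143). The protease Ctss (-2.51) and the lysosomal genes Man2b1 (-0.55) and Npc1 (-0.55) also fell. Ctss missed the threshold without 5+3 replicate 1 or 2 (adjusted p up to 0.0539) and Npc1 without 5+3 replicate 2 (adjusted p = 0.0674). The single rise, Atp6v1a, named for that reason, was 0.29 (adjusted p = 0.0483) and was lost in 8 of 9 such fits. The lysosomal count was 6 without 5+3 replicate 1 or 4 and 4 without 5+3 replicate 2.

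Of 48 tested adhesion and actin genes, 18 fell and 2 rose (median -0.26). Itga1, the collagen-binding integrin alpha 1, showed the largest fall of all genes that passed: 0.801, 0.831, 1.00 and 0.573 CPM in 5+3 mice, against 29.3, 7.61, 16.5, 5.41 and 22.8 CPM in vehicle mice. The 5+3 values were all near 1 CPM, whereas the vehicle values ranged several-fold (-4.27 ± 0.72, adjusted p = 0.00748). Evl, an Ena/VASP actin regulator, averaged 7.51 ± 1.44 CPM in 5+3 mice and 29.1 ± 5.57 CPM in vehicle mice (-1.97, adjusted p = 2.22e-06). Lsp1 (-2.33) and Ezr (-0.58), which bind actin at the membrane, fell, and the focal adhesion genes Actn1 (0.80) and Vcl (0.48) rose. The count of falls was 11 without vehicle replicate 5 or 5+3 replicate 3, 10 without 5+3 replicate 1 or 4 and 8 without 5+3 replicate 2.

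Granulocyte genes were described in a progenitor list and a mature list. Of 20 tested primary granule and granulocyte progenitor genes, 5 rose and none fell (median 0.18). Mpo, myeloperoxidase, was at 11971, 11994, 12770 and 9734 CPM in 5+3 mice and at 8500, 9818, 5862, 8053 and 6880 CPM in vehicle mice, and 5+3 replicate 4 lay below vehicle replicate 2 (0.57 ± 0.16, adjusted p = 0.0294). The serine proteases Prtn3 (0.61) and Prss57 (0.70), the protease inhibitor Serpinb1a (0.33) and Ms4a3 were the others, while Elane, neutrophil elastase, did not pass (0.36, adjusted p = 0.164). The count was 1, Ms4a3, without 5+3 replicate 1 or 2, and 3 without vehicle replicate 5. Of 20 tested mature neutrophil genes, 4 fell and 1 rose (median -0.23), whereas in mRNA 1 of 21 rose, none fell and 16 changes were positive (median 0.25). Over all genes tested in mRNA, 0.0869% rose and 0.316% fell. Footprints of Retnlg, a resistin-like protein, averaged 4.03 ± 1.99 CPM in 5+3 mice and 15.9 ± 5.31 CPM in vehicle mice (-1.99, adjusted p = 0.000668). Mmp8 (-1.55), Padi4 (-0.50) and Ly6g (-1.04) fell and Wfdc21 rose. Ly6g lost the call in 7 of 9 fits without 1 mouse (up to 0.139), and Wfdc21 without 5+3 replicate 1 or 2 (up to 0.0762).

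Interferon-stimulated genes gave 6 falls and no rise among 41 tested (median -0.18). Sp100, a nuclear body protein, averaged 187 ± 23 CPM in 5+3 mice and 304 ± 16.0 CPM in vehicle mice (-0.70, adjusted p = 0.000118). Ifi209, of the interferon-inducible Ifi200 family, was at 6.81, 6.65, 2.51 and 3.73 CPM in 5+3 mice and at 36.7, 18.0, 40.6, 18.0 and 45.7 CPM in vehicle mice, with no overlap (-2.69, adjusted p = 0.00504). Its relatives Ifi204 (-1.48) and Ifi211 (-1.14) and the antiviral gene Ifit3 (-1.60) fell. None of 18 class I presentation genes passed, although 17 of the 18 changes were negative (median -0.16). Over all genes tested, 4.22% rose and 4.65% fell. Ifi200 genes resemble one another in sequence, so reads shared between them are uncertain.

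The remaining lists are given beside the shares over all genes tested, 4.22% higher and 4.65% lower. Of 19 tested genes that handle or are targeted by cytarabine and doxorubicin, 3 rose, and these were Rrm1, Rrm2 and Top2a. Of 26 antioxidant genes, 2 fell: Gsr, glutathione reductase, averaged 339 ± 25.9 CPM in 5+3 mice and 478 ± 34.3 CPM in vehicle mice (-0.50, adjusted p = 0.00157), and Prdx5, a peroxiredoxin, changed by -0.32 (adjusted p = 0.0492), a call lost in 7 of 9 fits without 1 mouse (up to 0.162). Of 10 immediate early genes 1 fell, Fosl2 (-0.97, adjusted p = 0.0302), a call lost in 5 of 9 such fits (up to 0.11), and of 9 class II presentation genes 1 fell, Ctss. Of 81 nuclear-encoded respiratory chain genes, Uqcrc1 rose (0.29) and Ndufa1 fell (-0.54). No call was made by edgeR among 13 mitochondrially encoded respiratory genes (median -0.15), 12 Bcl2 family genes (median 0.09) and 16 guanylate-binding and immunity-related GTPases (median 0.33). All 13 mitochondrially encoded changes were negative. None of 65 replication-dependent histone genes passed, although all 65 changes were positive (median 0.38), and these genes share near-identical sequences. Their count of rises changed with the libraries and the settings: it was 33 without vehicle replicate 2, 2 without vehicle replicate 3 or 5+3 replicate 4, and 49 without both shallow vehicle libraries, a setting chosen after seeing the data. It was 49 with no filter, 13 in DESeq2 and 16 with the replicate number as a block.

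In the MLL-AF9 programme, 2 of 21 tested genes fell and none rose (median -0.08), beside 4.65% and 4.22% of all genes tested. Kit, the stem cell factor receptor, was at 112, 81.8, 115 and 132 CPM in 5+3 mice and at 262, 260, 275, 226 and 242 CPM in vehicle mice, with a wide gap (-1.19 ± 0.12, adjusted p = 2.22e-06). Zeb2 was the second. Hoxa9 (0.01, adjusted p = 0.982), Meis1 (-0.02, adjusted p = 0.945) and Myc (-0.28, adjusted p = 0.11) did not pass. Other falls with the smallest adjusted p were Rab44, a large Rab GTPase of granulocytes and mast cells (94.3 ± 6.08 CPM in 5+3 mice and 192 ± 19.1 CPM in vehicle mice, -1.02), the splicing factor Srsf5 (132 ± 12.5 CPM in 5+3 mice and 260 ± 23.6 CPM in vehicle mice, -0.97), Padi2 (-2.72) and Ptpn13 (-1.22). Ptpn13 had 42.1 ± 3.27 CPM in 5+3 mice and 97.0 ± 13.0 CPM in vehicle mice in footprints, but 0.397 ± 0.338 CPM in 5+3 mice and 0.163 ± 0.141 CPM in vehicle mice in mRNA. From which locus its footprint reads came was not tested.

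The matched mRNA libraries were set beside the footprint changes. In mRNA, 17803 to 18385 protein-coding genes had a count in 5+3 replicates 1 to 3. The number was 14278 in 5+3 replicate 4 and 14167 to 15631 in vehicle mice. Its part in the mRNA changes was not tested. The test made 51 calls among the 12660 genes with enough mRNA counts (0.403%), of which 11 were higher (0.0869%) and 40 lower (0.316%) in 5+3 mice. That count was 9 without 5+3 replicate 2 and 145 without vehicle replicate 4, and other single mice moved it to 22 to 50. The median standard error of the log2 change was 0.268 in mRNA and 0.152 in footprints. Of the 398 genes whose footprints rose, 396 were tested in mRNA and 353 had a positive mRNA change (median 0.33). Of the 439 that fell, 426 were tested and 377 had a negative change (median -0.45). In all 9211 genes tested in both, 4587 mRNA changes were positive and 4624 negative. Both tests were passed by 28 genes, all in the same direction. Ms4a3 mRNA averaged 596 ± 114 CPM in 5+3 mice and 143 ± 40.5 CPM in vehicle mice (2.05, adjusted p = 0.00241), and Pim1 mRNA 26.6 ± 9.58 CPM in 5+3 mice and 4.89 ± 2.19 CPM in vehicle mice (2.44, adjusted p = 0.00861). Irf8 mRNA changed by -2.05 (adjusted p = 0.00861), Kit mRNA by -1.41 (adjusted p = 0.00861) and Ly86 mRNA by -3.62 (adjusted p = 0.000295).

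Translational efficiency, the footprint change beyond the mRNA change, passed for 1 of 9211 genes (0.0109%). That gene was Fn1, fibronectin, a matrix glycoprotein made by macrophages (chromosome 1, 71585473 to 71653280). Its footprints were 9.21, 9.97, 15.0 and 8.31 CPM in 5+3 mice and 83.6, 37.4, 62.2, 22.2 and 113 CPM in vehicle mice. All 5+3 mice were below all vehicle mice. Its mRNA averaged 3.82 ± 1.17 CPM in 5+3 mice and 4.98 ± 3.77 CPM in vehicle mice, a change of -0.38 (adjusted p = 0.85). The efficiency changed by -2.31 ± 0.29 (adjusted p = 0.00577), and in edgeR no gene passed without 5+3 replicate 2 and 2 passed without vehicle replicate 4. With all mice, 441 of the 9211 genes had an unadjusted p under 0.05, and chance alone gives a share of about 0.05. In footprints, 2267 of 9441 genes did. The median standard error of the efficiency change was 0.283. The largest positive efficiency change by p was that of Rbm5, an RNA-binding splicing regulator (1.15, adjusted p = 0.588), which did not pass.

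**Figure D4:**
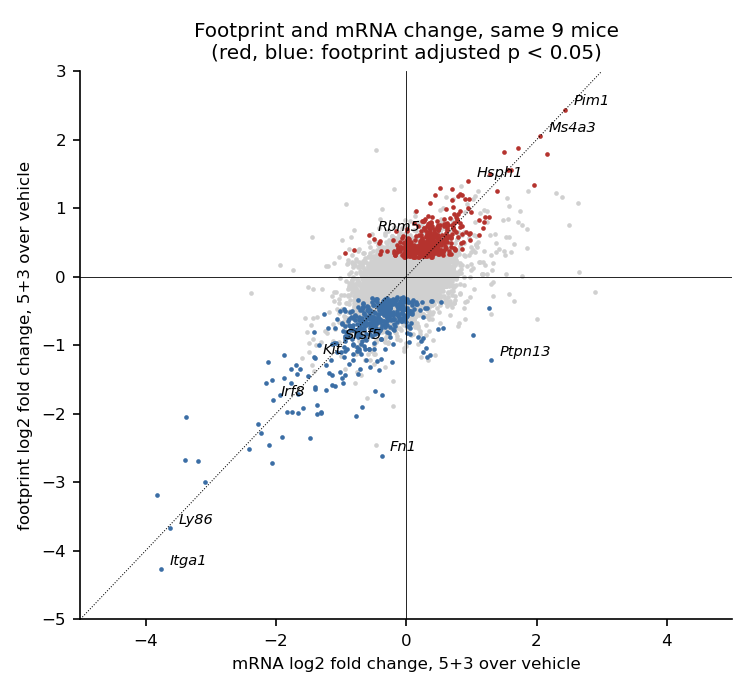
Footprint log2 fold change against mRNA log2 fold change (5+3 over vehicle) for the 9211 genes tested in both, from the same 9 mice; the dotted line marks equal change. Genes whose footprints rose (red) or fell (blue) mostly share the sign of their mRNA change, and Fn1 lies far below the line (-2.61 in footprints, -0.38 in mRNA).

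The footprint response to 5+3 was set beside that on the BCAA-free diet with a test of the difference itself, fitted over all 21 footprint libraries. Of the mice in this fit, only the AA vehicle mice have the name suffix. What it marks enters every difference, and it and the diet cannot be told apart there. Each difference is the log2 change on the BCAA-free diet minus that on the AA diet. It passed for 463 of 9893 genes (4.68%), 195 with a higher and 268 with a lower response on the BCAA-free diet. The count was 257 without AA 5+3 replicate 1, 278 without AA 5+3 replicate 2, 268 without BCAA vehicle replicate 5 and 762 without BCAA 5+3 replicate 2. In the cholesterol list, 12 of 24 genes had a lower response to 5+3 on the BCAA-free diet and none a higher one (median difference -0.74), and in the ER list 10 of 29 were lower and none higher (median -0.42). Fdps changed by 0.79 ± 0.11 on the AA diet and by -0.36 ± 0.10 on the BCAA-free diet (difference -1.16, adjusted p = 3.23e-05). Hspa5 changed by 0.85 ± 0.14 on the AA diet and by -0.24 ± 0.12 on the BCAA-free diet (difference -1.09, adjusted p = 0.000761), and Hsph1 by 1.40 ± 0.31 on the AA diet and by -0.64 ± 0.29 on the BCAA-free diet (difference -2.04, adjusted p = 0.0106). Srsf5 had the smallest adjusted p of all: -0.96 ± 0.14 on the AA diet and 0.94 ± 0.12 on the BCAA-free diet (difference 1.90, adjusted p = 1.38e-07). For the change on the BCAA-free diet alone, Fdps (adjusted p = 0.00948) and Srsf5 (adjusted p = 6.19e-06) passed in edgeR. Hspa5 (adjusted p = 0.149) and Hsph1 (adjusted p = 0.123) did not.

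Other leading genes gave no difference that passed. Cdkn1a changed by 1.57 ± 0.28 on the AA diet and by 1.55 ± 0.24 on the BCAA-free diet (difference -0.02 ± 0.37, adjusted p = 0.985). Ms4a3 differed by -0.11 ± 0.56 (adjusted p = 0.938), Pim1 by 0.46 ± 0.80 (adjusted p = 0.79) and Irf8 by 0.04 ± 0.63 (adjusted p = 0.984). With standard errors of this size, a p that misses the threshold does not show equal responses. Of 55 mitotic genes none passed in edgeR, and of 29 tested monocyte genes 1 did, beside 4.68% of all genes tested. Of the mitotic differences, 43 were negative and 12 positive (median -0.179). Of the monocyte differences, 24 were positive and 5 negative (median 0.295). Beside these differences, 5 of 8 tested erythroid markers had a lower response on the BCAA-free diet (median difference -3.38), among them Hbb-bt (-3.94, adjusted p = 0.00026), and their part in the result was not tested.

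**Figure D5:**
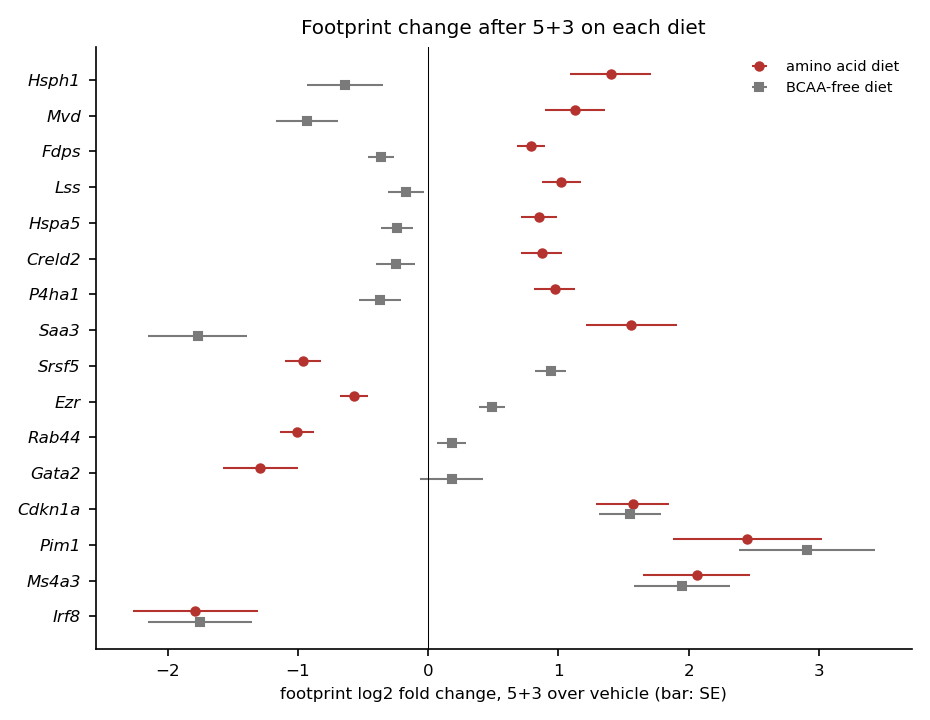
Footprint log2 fold change (5+3 over vehicle, with SE) of 16 genes on the AA diet (red circles) and on the BCAA-free diet (grey squares), from one fit over 21 libraries. Hsph1, Mvd, Fdps, Lss, Hspa5, Creld2, P4ha1 and Saa3 lie above 0 on the AA diet and below 0 on the BCAA-free diet, Srsf5, Ezr, Rab44 and Gata2 lie the other way, and Cdkn1a, Pim1, Ms4a3 and Irf8 lie on the same side on both. Of the genes on opposite sides, only Mvd, Fdps, Saa3, Srsf5 and Ezr passed for the change on the BCAA-free diet alone.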

How the data were processed

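The sequenced cells gave footprint libraries (RNase I digestion, sucrose cushion) and mRNA libraries (Smart-seq2) from 1 lysate per mouse, per the labels' protocols. The authors deposited raw read counts per gene. Per the submitters' processing notes, the tools were featureCounts, STAR, Bowtie2, SAMtools and cutadapt and the builds GRCm38 and mm10, listed without versions or roles. Gene models, strandedness and the counting of reads shared by near-identical genes are not stated there, so such copies and antisense neighbours are uncertain.

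Of 55487 rows, 21400 protein-coding genes were kept by RefSeq gene type, including 13 mitochondrial genes matched by symbol, and 99.4% of rows had a symbol. Genes passed a minimum count of 10 and total of 15 (filterByExpr). The test was edgeR 4.0.16 (R 4.3.3), robust quasi-likelihood, with TMM scaling over the 9 libraries of the comparison and Benjamini-Hochberg adjustment over all genes tested, at 0.05. Levels are CPM of protein-coding counts with TMM scaling. Efficiency was the interaction of library kind and treatment with mouse as a block, and the diet difference was a contrast over 21 footprint libraries. The fitting functions were tested on simulated data. Alternatives were all 4 groups in 1 fit, median-ratio scaling, no filter, all rows of the table, DESeq2 1.42.0, limma 3.58.1 voom, the replicate number as a block, and leaving out each mouse. Leaving out both shallow vehicle libraries was added after seeing the data.

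The members and gene lists were chosen with earlier results of these data known, so lists are described by counts and medians without a test. Named genes were, among those that passed at 5 CPM or more in the higher group's mean and with the same direction in at least 90% of pairs of mice, the 15 highest and 15 lowest log2 changes and the 6 smallest adjusted p each way, up to 5 list members with the smallest adjusted p, a fixed panel, and the leading genes of the other comparisons. Genes named outside this rule (Ldhb, Atp6v1a, Nap1l5, Uqcrc1 and Ndufa1) were chosen after their values were seen. Some genes that met the rule are not reported here.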

Additional observations from a re-analysis of the deposited data

Results flagged for a closer look

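Among 156 genes examined in 4 5+3 mice and 5 vehicle mice, 312 groups of values were checked for a mouse far from the others of its group, by the gap to its neighbour against the range of the group, and 18 were found. Chance gives about 1 in 20 such groups. In 5+3 mice, replicate 1 stood apart for Bard1 (50.9 CPM, low) and Mmp8 (12.4 CPM, high), and replicate 2 for Clec4e (28.3 CPM, high) and Rrm2 (379 CPM, high). Replicate 3 stood apart for Padi2 (7.52 CPM, high), Pfpl (2.01 CPM, high) and Prdx5 (206 CPM, low). Replicate 4 stood apart for Car2 (11.5 CPM, high), Mdm2 (27.2 CPM, high), Sec23b (168 CPM, low) and Aars (308 CPM, low). In vehicle mice, replicate 2 was high for Myc (407 CPM), Actn1 (99.0 CPM) and Bcat2 (81.7 CPM). Replicate 3 was high for Iars (260 CPM) and Rbm3 (739 CPM), replicate 4 was low for Mki67 (955 CPM) and replicate 5 was low for Serpinb1a (595 CPM).

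The edgeR test of the diet difference in the response to 5+3 passed for 35 of the 156 genes. Over all genes tested it passed for 463 of 9893 (4.68%). Some of the 156 were chosen by the p of this same test and many by their change on the AA diet. Their share is therefore no result about them. The name suffix of the AA vehicle mice enters these differences too. Each is given as the log2 change on the BCAA-free diet minus that on the AA diet. The difference was positive for Ptpn13 (1.97), Srsf5 (1.90), Ifi214 (1.80), Gata2 (1.47), Evl (1.38), Rab44 (1.19), Fnbp4 (1.14), Rbm3 (1.09), Ezr (1.07), Adss (0.91), Prkdc (0.68), Psat1 (0.66) and Gsr (0.43). It was negative for Hbb-bt (-3.94), Saa3 (-3.34), Mvd (-2.06), Hsph1 (-2.04), Gpr141 (-1.89), Polq (-1.80), Rbm5 (-1.74), P4ha1 (-1.34), Ints3 (-1.20), Lss (-1.18), Fdps (-1.16), Creld2 (-1.12), Hspa5 (-1.09), Cyp51 (-0.91), Pfkl (-0.89), Idi1 (-0.88), Dnaja1 (-0.87), Sdf2l1 (-0.74), Dnajc3 (-0.58), Tyms (-0.53), Ndc1 (-0.51) and Sec23b (-0.49). Hbb-bt is a haemoglobin gene, and Ptpn13, Ifi214 and Pfpl had almost no mRNA counts in these mice: means in 5+3 and vehicle mice were 0.397 and 0.163 CPM for Ptpn13, 0.0263 and 0.0203 CPM for Ifi214, and 0.0217 and 0 CPM for Pfpl. From which loci their footprint reads came was not tested.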

How the results depend on the processing

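The footprint count of 837 genes was 446 to 969 over the fits that left out 1 mouse (490 without 5+3 replicate 1, 446 without 5+3 replicate 2), 749 in DESeq2, 815 in limma voom and 1070 without both shallow vehicle libraries. The mRNA count of 51 was 13 with all 4 groups in 1 fit, 86 with no filter, 275 in DESeq2 and 9 to 145 without 1 mouse (29 without vehicle replicate 1, 145 without vehicle replicate 4, 28 without vehicle replicate 5, 22, 9, 29 and 30 without 5+3 replicates 1 to 4). The efficiency count of 1 was 44 with no filter and 0 to 2 without 1 mouse. The diet difference count of 463 was 257 to 762 without 1 mouse. The cause of these shifts was not tested. With the replicate block the counts were 643 for footprints, 10 for mRNA and 272 for the diet difference. The labels do not say that a number marks a shared litter or day. Footprint deviations from the group mean correlated at -0.041, 0.181, -0.044 and 0.351 between same-numbered 5+3 and vehicle mice, for replicates 1 to 4. Between differently numbered mice they correlated at -0.364 to 0.282. Hoxa9, at 0.008, was -0.082 under the replicate block and -0.084 to 0.085 over the fits without 1 mouse, negative in 3 of 9. Meis1, at -0.018, was 0.002 with no filter, 0.021 under the replicate block, 0.006 with all rows of the table and -0.074 to 0.033 over the fits without 1 mouse, positive in 5 of 9. Neither gene passed. Of 141 named genes that passed, 94 lost the call in no fit without 1 mouse, 100 in no other alternative and 87 in neither. A fit whose filter left a gene out did not count as a loss. Among these, Pfpl was tested in only 5 of the 9 fits without 1 mouse. Cholesterol genes gave 9 to 14 rises without 1 mouse and endoplasmic reticulum genes 11 to 13, whereas monocyte genes gave 6 to 17 falls. Without both shallow libraries monocyte genes gave 9 falls, TRiC and prefoldin 2 rises, histones 49 rises (0 with all mice, 16 under the replicate block), ribosomal proteins 9 falls (1 with all mice), ATF4 targets 7 rises (1 with all mice), and translation factors no rise and 4 falls (2 and 0 with all mice).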
